A study of Mus musculus with 9 samples.

Results

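The genes described are the 10 Hippo pathway genes *Yap1*, *Wwtr1*, *Tead1*, *Tead2*, *Tead3*, *Tead4*, *Amot*, *Amotl1*, *Amotl2* and *Lats1*, taken by their symbols from the 25239 gene symbols of the count files. These genes and the gene lists used below were chosen with earlier results of these data known. All 10 Hippo pathway genes were among the 14125 genes that passed the filter on low counts and were tested. RNA was sequenced from E14 mouse embryonic stem cells (ESCs) of 3 lines with 3 libraries each. The control line carried unedited *Rbbp4* (Rbbp4+/+), *Rbbp4* Ins/Ins (Ins/Ins) carried an in-frame insertion on each of its alleles, and *Rbbp4* Ins/Del (Ins/Del) carried that insertion on 1 allele with an in-frame deletion on the other. *Rbbp4* encodes a histone-binding subunit that Polycomb repressive complex 2 and several histone deacetylase complexes have in common. All lines have the strain label 12910la and were grown in medium with 15% fetal bovine serum and leukemia inhibitory factor. Each mutant line is a single clone obtained with Cas9 and the same guide RNA, so an effect of the *Rbbp4* genotype and a property of the clone cannot be told apart. The labels do not say whether the libraries of a line came from separate cultures, so the p-values measure the spread between these libraries, which may be technical.

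The Hippo pathway is a kinase cascade that links cell contact, cell polarity and tension to transcription. The kinases LATS1 and LATS2 phosphorylate the coactivators YAP (*Yap1*) and TAZ (*Wwtr1*), which then stay in the cytoplasm and are degraded; unphosphorylated YAP and TAZ enter the nucleus and bind the TEAD factors, which recognise the DNA letters GGAATG. The angiomotins (*Amot*, *Amotl1* and *Amotl2*) are scaffold proteins of cell junctions that bind YAP and assist its phosphorylation by LATS, and *Amotl2* is itself widely used as a readout of YAP activity. In the early mouse embryo this pathway separates the outer trophectoderm, where YAP and TEAD4 are active in the nucleus, from the inner cell mass, from which ESCs are derived.

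The promoter windows of the angiomotins and of *Tead3* are shown because these are the 4 genes of the group that fell by more than 2-fold in both mutant lines. Each window holds 300 bases of the transcribed strand from RefSeq on GRCm38.p6 (mm10), 250 before the RefSeq start site and 50 from it onward. Capitals mark GGAATG or its reverse complement CATTCC, the only motif searched, on both strands; of 3 *Tead3* windows the one with the most matches is shown.
*Amot*, chrX:145487590-145487889, minus strand: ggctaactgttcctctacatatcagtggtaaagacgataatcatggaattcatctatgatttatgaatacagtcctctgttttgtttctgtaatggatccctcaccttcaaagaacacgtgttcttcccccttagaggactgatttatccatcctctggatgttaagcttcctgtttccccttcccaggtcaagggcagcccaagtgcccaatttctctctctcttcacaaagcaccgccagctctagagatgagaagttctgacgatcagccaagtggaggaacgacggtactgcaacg
*Amotl1*, chr9:14614951-14615250, minus strand: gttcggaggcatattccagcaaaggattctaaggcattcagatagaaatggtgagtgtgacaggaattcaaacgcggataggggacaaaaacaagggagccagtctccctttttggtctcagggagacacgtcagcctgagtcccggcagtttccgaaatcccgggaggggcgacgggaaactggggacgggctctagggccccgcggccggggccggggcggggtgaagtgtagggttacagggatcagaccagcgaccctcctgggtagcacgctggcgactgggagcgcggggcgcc
*Amotl2*, chr9:102717554-102717853, plus strand: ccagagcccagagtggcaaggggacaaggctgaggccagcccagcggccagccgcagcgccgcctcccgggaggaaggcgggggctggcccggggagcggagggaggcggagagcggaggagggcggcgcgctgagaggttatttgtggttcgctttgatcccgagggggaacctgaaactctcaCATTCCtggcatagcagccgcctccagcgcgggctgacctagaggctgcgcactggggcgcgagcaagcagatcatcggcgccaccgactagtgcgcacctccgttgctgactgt
*Tead3*, chr17:28350551-28350850, minus strand: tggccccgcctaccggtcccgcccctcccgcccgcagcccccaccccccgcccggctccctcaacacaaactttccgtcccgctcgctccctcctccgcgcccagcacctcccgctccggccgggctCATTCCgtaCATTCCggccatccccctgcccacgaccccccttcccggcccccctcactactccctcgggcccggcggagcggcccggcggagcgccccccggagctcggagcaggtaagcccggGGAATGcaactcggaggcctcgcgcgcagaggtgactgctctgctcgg
The *Tead3* window had 3 matches, at 123 and 114 bases before the start site and 2 bases after it. The *Tead3* windows not shown had 0 and 1. The *Amotl2* window had 1 match 65 bases before the start site, and the *Amot* and *Amotl1* windows had none. The windows of the 3 angiomotins lie within the GENCODE bounds of their genes, and 1 of 6 annotated *Amot* transcripts, 1 of 6 *Amotl1* transcripts and 0 of 14 *Amotl2* transcripts start within 50 bases of the RefSeq start site. For the *Tead3* window shown it was 1 of 9 transcripts. For the *Tead3* windows not shown it was 2 of 9 for the one with 1 match and 1 of 9 for the one with 0. RefSeq windows were matched for 8 of the 10 genes, all but *Tead1* and *Tead4*. Of these 8 genes, 4 had at least 1 match, which were *Yap1*, *Wwtr1*, *Tead3* and *Amotl2*. Among all 27025 genes with a window of this length, 16.6% had a match, and among the 14 YAP-TEAD target genes with a window it was 6. A match describes the letters in the window only.

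In both mutant lines 9 of the 10 genes fell and *Tead4* rose, each at an adjusted p of at most 0.01 (edgeR's quasi-likelihood test, Benjamini-Hochberg adjustment over all tested genes). Since the genes were chosen with earlier results known, their counts beside the background shares are a description only. The background was high. In Ins/Ins 58.4% of all tested genes passed this limit, 29.4% lower and 29% higher, and in Ins/Del it was 62.5%, with 31.9% lower and 30.6% higher. Of all tested genes, 26.7% fell in both lines and 25.6% rose in both. The median log2 fold change of the 10 genes was -0.56 in Ins/Ins and -0.58 in Ins/Del, against 0.0038 and -0.011 over all tested genes. For 9 of the 10 genes all 6 mutant libraries lay below all 3 control libraries, and for *Tead4* all 6 lay above; 30.6% of all tested genes were separated in the first way and 30.4% in the second. Falls of more than 2-fold in both lines were found for *Amot*, *Amotl1*, *Amotl2* and *Tead3*, 4 of 10 genes, where 8.09% of all tested genes fell that far in both. Both comparisons use the same 3 control libraries, so their agreement is not independent. The libraries are bulk RNA, in which fewer cells that express a gene and less RNA per cell cannot be told apart. Values per library are normalized read counts, which are reads scaled to a common library size.

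**Figure D1:**
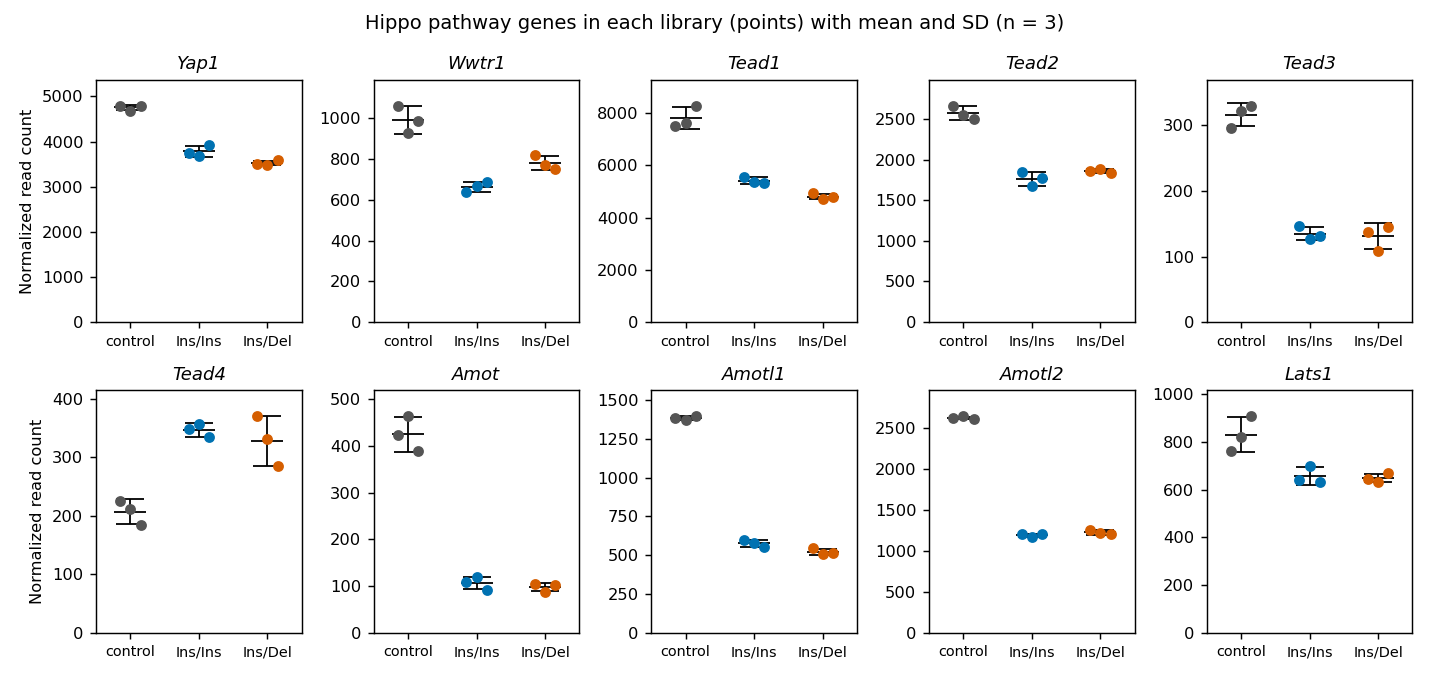
Normalized read count of the 10 Hippo pathway genes in each library, with a panel per gene and an axis from 0. Points are libraries of the control, Ins/Ins and Ins/Del lines, and bars are the mean and SD (n = 3). The control libraries lie above all mutant libraries except for *Tead4*, where they lie between 184.1 and 225.7 and the mutant libraries between 284.6 and 370.1.

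*Amot* and *Amotl1* had the largest falls of the 10 genes in both lines. *Amot*, which encodes the founding angiomotin of the family, gave 423.2, 463.0 and 388.7 normalized counts in the control, 109.5, 118.5 and 92.0 in Ins/Ins and 104.3, 87.5 and 101.8 in Ins/Del. The lowest control library held more than 3 times the normalized count of the highest mutant library. The log2 fold change was -1.99 ± 0.10 (SE, adjusted p = 4.3e-20) in Ins/Ins and -2.12 ± 0.10 (SE, adjusted p = 8.6e-21) in Ins/Del, which is 3.99-fold and 4.34-fold lower than the control. Only 3.07% and 3.04% of all tested genes had a lower fold change in these comparisons.

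*Amotl1*, an angiomotin of epithelial and endothelial junctions, gave 1382, 1368 and 1393 normalized counts in the control, 598.7, 577.8 and 549.7 in Ins/Ins and 544.9, 504.4 and 516.0 in Ins/Del. The 3 lines did not overlap, with the control highest and Ins/Del lowest. The gene fell by 1.26 ± 0.051 (SE, adjusted p = 3e-23) and by 1.41 ± 0.052 (SE, adjusted p = 1.3e-24) on the log2 scale. *Amotl2* gave 2619, 2645 and 2619 normalized counts in the control, 1209, 1174 and 1202 in Ins/Ins and 1261, 1215 and 1207 in Ins/Del. Here the mutant lines overlapped, and both lay below the control by 1.14 ± 0.038 (SE, adjusted p = 6.1e-26) and 1.10 ± 0.038 (SE, adjusted p = 1.4e-25) on the log2 scale. In a test of a change greater than 2-fold, *Amot* and *Amotl1* passed in both lines, *Amotl2* passed in Ins/Ins only (adjusted p = 0.0012, against 0.014 in Ins/Del), and *Tead3* in Ins/Del only (adjusted p = 0.0089, against 0.049 in Ins/Ins).

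Levels of different genes were compared as CPM per kb of exon, reads scaled to library size and divided by exon length. This length joined all GENCODE exons of a gene, and the annotation used for counting is not given. For *Tead1* it was 13570 bases with 1308 coding, and for *Tead2* 4788 bases with 1335 coding. Shares, ratios and orders between genes depend on this choice, and no other length was used. On this scale *Amotl2* was the most abundant angiomotin in the control at 22.9 ± 0.13 (SD, n = 3), above *Amotl1* at 7.53 ± 0.069 and *Amot* at 2.77 ± 0.24. The summed angiomotin level was 33.2 ± 0.29 (SD, n = 3) in the control, 14.2 ± 0.23 in Ins/Ins and 14.2 ± 0.40 in Ins/Del, and the mutant sums differed from the control by -57.1% and -57.3%. *Amotl2* made up 69.0% ± 0.26 (SD, n = 3) of the sum in the control, 73.1% ± 1.2 in Ins/Ins and 75.5% ± 0.59 in Ins/Del. The share of *Amot* was 8.35% ± 0.66 (SD, n = 3), 4.88% ± 0.60 and 4.50% ± 0.35 in the same order.

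**Figure D2:**
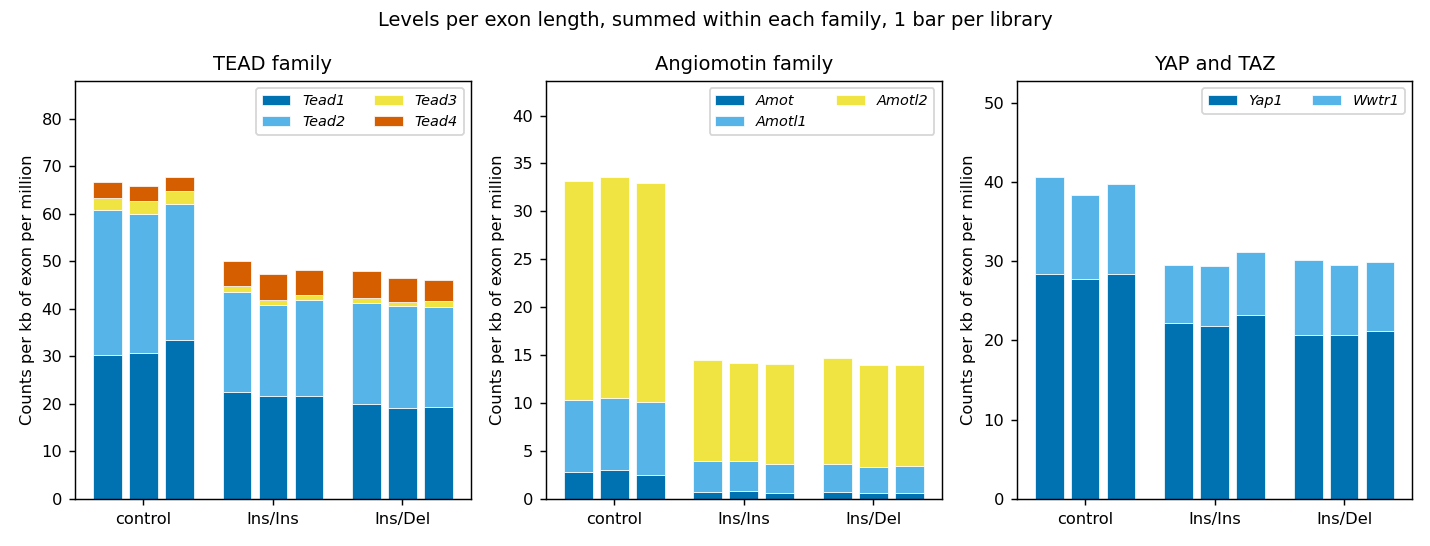
Level per exon length in CPM per kb of exon (counts scaled to library size and exon length), stacked within the TEAD family, the angiomotin family and the pair of YAP and TAZ, with 1 bar per library and each colour a gene. The angiomotin bars of the mutant lines stand at 13.9 to 14.7, against 33.0 to 33.5 in the control, and the *Tead4* segment is larger in the mutant bars while the whole TEAD bar is shorter.

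*Yap1*, the gene of the coactivator YAP, gave 4794, 4680 and 4789 normalized counts in the control, 3740, 3678 and 3920 in Ins/Ins and 3499, 3485 and 3583 in Ins/Del. The 3 lines did not overlap. The log2 fold change was -0.33 ± 0.031 (SE, adjusted p = 5.4e-12) in Ins/Ins and -0.43 ± 0.031 (SE, adjusted p = 2.7e-15) in Ins/Del, a fall of 20.5% and 25.9%. *Wwtr1*, which encodes the related coactivator TAZ, gave 1062, 927.1 and 986.3 normalized counts in the control, 637.2, 668.0 and 687.1 in Ins/Ins and 820.9, 768.8 and 752.1 in Ins/Del. Its lines did not overlap either, but the order of the mutants was the opposite of that of *Yap1*, with Ins/Ins lowest. *Wwtr1* fell by 0.58 ± 0.056 (SE, adjusted p = 7.2e-12) and by 0.35 ± 0.054 (SE, adjusted p = 5.2e-07) on the log2 scale. Per exon length, *Yap1* was more abundant than *Wwtr1* by a ratio of 2.48 ± 0.14 (SD, n = 3) in the control, 2.94 ± 0.094 in Ins/Ins and 2.33 ± 0.13 in Ins/Del. The summed level of both coactivators differed from the control by -24.1% in Ins/Ins and -24.6% in Ins/Del.

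The 4 TEAD genes encode the DNA-binding partners of YAP and TAZ. *Tead1* gave 7501, 7615 and 8285 normalized counts in the control, 5555, 5367 and 5339 in Ins/Ins and 4924, 4710 and 4790 in Ins/Del. Its level fell from line to line without overlap, by 0.52 ± 0.032 (SE, adjusted p = 2.9e-17) and 0.70 ± 0.033 (SE, adjusted p = 3.4e-21) on the log2 scale against the control. *Tead2*, a TEAD of the early embryo, gave 2662, 2551 and 2502 normalized counts in the control, 1842, 1672 and 1775 in Ins/Ins and 1858, 1886 and 1840 in Ins/Del. The mutant lines overlapped, and the falls were 0.54 ± 0.038 (SE, adjusted p = 1.3e-15) and 0.47 ± 0.038 (SE, adjusted p = 7.6e-14) on the log2 scale.

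*Tead3*, for which the window with the most GGAATG matches is shown above, was a low-level member. It gave 296.7, 322.6 and 330.2 normalized counts in the control, 146.3, 126.4 and 132.1 in Ins/Ins and 138.0, 108.3 and 145.8 in Ins/Del. The mutant lines overlapped and the control stood apart. *Tead3* fell by 1.22 ± 0.10 (SE, adjusted p = 1.5e-13) and by 1.28 ± 0.10 (SE, adjusted p = 3.8e-14) on the log2 scale, or 2.35-fold and 2.42-fold.

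*Tead4*, the TEAD required to form the trophectoderm, was the only gene of the 10 that rose. It gave 225.7, 211.6 and 184.1 normalized counts in the control, 348.1, 357.7 and 334.1 in Ins/Ins and 370.1, 331.1 and 284.6 in Ins/Del. The log2 fold change was 0.73 ± 0.091 (SE, adjusted p = 4.9e-09) in Ins/Ins and 0.66 ± 0.092 (SE, adjusted p = 4.8e-08) in Ins/Del, an increase of 67.4% and 58.7%. Per exon length, its share of the summed TEAD level went from 4.74% ± 0.53 (SD, n = 3) in the control to 10.9% ± 0.53 in Ins/Ins and 10.7% ± 1.2 in Ins/Del. The sum itself was 66.7 ± 0.90 (SD, n = 3) CPM per kb of exon in the control, 48.5 ± 1.4 in Ins/Ins and 46.8 ± 1.0 in Ins/Del. *Tead1* and *Tead2* together made up most of that sum in every line, with 47.2% ± 2.1 and 44.2% ± 1.7 (SD, n = 3) in the control.

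*Lats1*, the kinase that phosphorylates YAP and TAZ, gave 764.3, 821.3 and 907.3 normalized counts in the control, 642.4, 700.8 and 631.1 in Ins/Ins and 646.1, 632.5 and 668.8 in Ins/Del. The mutant lines overlapped below the control. The falls were 0.33 ± 0.059 (SE, adjusted p = 5.6e-06) and 0.35 ± 0.060 (SE, adjusted p = 2e-06) on the log2 scale, with the highest adjusted p of the 10 genes in both comparisons.

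Ordered by level per exon length, the control line ran from *Tead1*, *Tead2*, *Yap1*, *Amotl2*, *Wwtr1*, *Amotl1* and *Lats1* to *Tead4*, *Amot* and *Tead3*. This order depends on the exon lengths chosen, as described above. Neighbours whose library ranges overlapped were *Tead1* with *Tead2*, *Tead4* with *Amot*, and *Amot* with *Tead3*. In Ins/Ins *Yap1* came first at 22.4 ± 0.74 (SD, n = 3) CPM per kb of exon, overlapping *Tead1*, and in Ins/Del *Tead2* came first at 21.3 ± 0.27, overlapping *Yap1*. *Tead4* moved from below *Lats1* to overlap with it in both mutant lines. *Amotl1* moved from above *Lats1* to below it, and *Amot* became the lowest of the 10 genes, below *Tead3* without overlap.

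Between the mutant lines, 2 of the 10 genes passed the limit, where 10.8% of all tested genes did, 6.17% higher in Ins/Del and 4.64% lower. *Wwtr1* was higher in Ins/Del than in Ins/Ins by 0.24 ± 0.058 (SE, adjusted p = 0.0028) on the log2 scale, although without the first Ins/Del library or the first Ins/Ins library the difference was 0.20 and 0.21 with an adjusted p of 0.032 and 0.03. *Tead1* was lower in Ins/Del, with a log2 difference of -0.17 ± 0.033 (SE, adjusted p = 0.00018). For the other 8 genes no difference was called, with 95% confidence intervals of the log2 difference from -0.17 to -0.04 for *Yap1*, from -0.40 to 0.13 for *Amot*, from -0.26 to -0.03 for *Amotl1* and from -0.05 to 0.12 for *Amotl2*. The intervals were from -0.004 to 0.16 for *Tead2*, from -0.31 to 0.17 for *Tead3*, from -0.24 to 0.10 for *Tead4* and from -0.14 to 0.11 for *Lats1*.

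**Figure D3:**
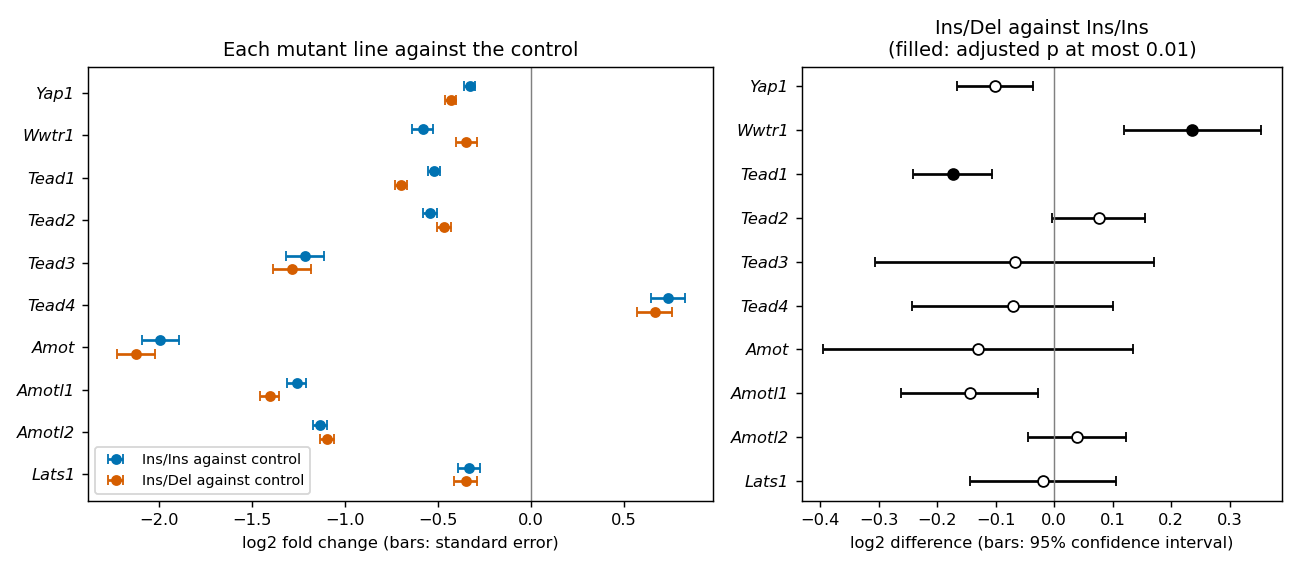
Log2 fold change of each gene in both mutant lines against the control (left, bars are SE) and log2 difference of Ins/Del against Ins/Ins (right, bars are 95% confidence intervals, filled points have an adjusted p of at most 0.01). *Amot* lies furthest left at -1.99 and -2.12, *Tead4* alone lies right of 0 in the left panel, and only *Wwtr1* and *Tead1* are filled in the right panel.

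The other genes of the cascade and its cofactors had median fold changes close to 0. Of 22 listed kinases, adaptors and VGLL cofactors 21 were tested. In Ins/Ins 4 rose, 6 fell and 11 did not pass, with a median log2 fold change of -0.002; in Ins/Del 6 rose, 8 fell and 7 did not pass, with a median of 0.025. That is 10 and 14 of 21 called, where 58.4% and 62.5% of all tested genes were called in the same comparisons. The core kinases *Stk3* and *Stk4* and their scaffold *Sav1* were called in neither line; these 3 and *Nf2* are named after their values were seen. *Nf2*, the upstream activator of LATS known as Merlin, rose from 4636 ± 124 (SD, n = 3) normalized counts in the control to 6337 ± 59.0 in Ins/Ins and 5873 ± 149 in Ins/Del.

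*Lats2*, the second LATS kinase and a target gene of YAP, gave 188.1, 188.6 and 160.2 normalized counts in the control, 35.1, 29.3 and 37.0 in Ins/Ins and 75.7, 49.6 and 57.9 in Ins/Del. It fell by 2.40 ± 0.16 (SE, adjusted p = 1.7e-16) and by 1.56 ± 0.14 (SE, adjusted p = 1.3e-12) on the log2 scale, with no overlap between the 3 lines. Of its exonic length, 42.4% is overlapped on the same strand by the gene model Gm49361, so its reads are uncertain. *Ajuba*, a LIM-domain inhibitor of LATS, fell by 1.23 ± 0.034 (SE, adjusted p = 1.1e-28) and by 1.14 ± 0.034 (SE, adjusted p = 8.5e-28) on the log2 scale.

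*Lats2*, *Ajuba* and the target gene *Dock5* lie on chromosome 14 between 45 and 88 Mb, where 84.1% of 264 tested genes fell in Ins/Ins and 81.1% in Ins/Del. The median log2 fold change of that segment was -0.90 and -0.91, and its part in these 3 results was not tested. None of the 10 genes lies on chromosome 14. On mm10 *Yap1*, *Amotl1* and *Amotl2* lie on chromosome 9, *Tead1* and *Tead2* on chromosome 7, *Wwtr1* on chromosome 3, *Tead3* on chromosome 17, *Tead4* on chromosome 6, *Lats1* on chromosome 10 and *Amot* on chromosome X.

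The VGLL proteins bind the TEADs as cofactors in place of YAP. *Vgll3* fell from 300.9 ± 15.8 (SD, n = 3) normalized counts to 96.8 ± 5.1 in Ins/Ins and 113.6 ± 9.97 in Ins/Del. *Vgll1* had 8, 1 and 3 reads in the control libraries, 26, 16 and 18 in Ins/Ins and 35, 47 and 34 in Ins/Del. It rose by 2.31 ± 0.43 (SE, adjusted p = 1e-05) and by 3.28 ± 0.37 (SE, adjusted p = 4.5e-10) on the log2 scale from at most 8 reads in a control library.

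Upstream of the cascade, 16 of 18 polarity and atypical cadherin genes were tested. In Ins/Ins 9 fell and 0 rose, and in Ins/Del 11 fell and 0 rose, with median log2 fold changes of -0.17 and -0.23. Of all tested genes 29.4% and 31.9% fell in these comparisons, and 29% and 30.6% rose. *Dchs1*, a protocadherin ligand of the FAT cadherins, had 62, 64 and 56 reads in the control, 8, 6 and 8 in Ins/Ins and 5, 6 and 6 in Ins/Del, a log2 fold change of -3.01 ± 0.28 (SE, adjusted p = 4.8e-12) and -3.35 ± 0.30 (SE, adjusted p = 9.5e-13). *Fat3* fell by 1.72 ± 0.25 (SE, adjusted p = 1.4e-07) and by 2.07 ± 0.26 (SE, adjusted p = 7.5e-09) on the log2 scale.

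Of 21 listed target genes of YAP and TEAD, 19 were tested; *Amotl2* was left out of this list because it is described above, and *Lats2* and *Ptpn14* stand in both this list and that of the kinases and adaptors. In Ins/Ins 17 fell, 1 rose and 1 did not pass, where 29.4% of all tested genes fell and 29% rose. Of those 17, 11 fell by more than 2-fold, against 8.95% of all tested genes. In Ins/Del 16 fell, 1 rose and 2 did not pass, where 31.9% of all tested genes fell and 30.6% rose. Of those 16, 9 fell by more than 2-fold, against 10.2% of all tested genes. The median log2 fold changes were -1.41 and -0.96. *Myof*, which encodes the membrane repair protein myoferlin, was the gene that rose, by 28.4% and 39.2%; it is named after its values were seen.

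*Ccn1* and *Ccn2*, the secreted matricellular proteins also known as CYR61 and CTGF, are the most used readouts of YAP. *Ccn1* gave 1220, 1188 and 1073 normalized counts in the control, 244.6, 255.0 and 246.3 in Ins/Ins and 210.6, 225.6 and 207.1 in Ins/Del. The lowest control library was far above the highest mutant library, and the falls were 2.23 ± 0.065 (SE, adjusted p = 7.3e-28) and 2.43 ± 0.067 (SE, adjusted p = 7.9e-29) on the log2 scale. *Ccn2* gave 1871, 1697 and 1726 normalized counts in the control, 638.1, 668.0 and 647.0 in Ins/Ins and 614.4, 608.1 and 664.1 in Ins/Del. Its log2 fold changes were -1.44 ± 0.050 (SE, adjusted p = 1.8e-25) and -1.49 ± 0.050 (SE, adjusted p = 5.6e-26), and 23.2% of its exonic length is overlapped by a gene model on the opposite strand.

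*Ankrd1*, a muscle ankyrin-repeat protein and YAP target, had 62, 53 and 46 reads in the control, 5, 1 and 2 in Ins/Ins and 2, 4 and 3 in Ins/Del. Its summed reads per library size were 19.8-fold lower (95% counting interval 9.82 to 46.7) and 17.3-fold lower (8.9 to 38.6). *Tgfb2*, a secreted growth factor, had 244, 153 and 161 reads in the control, 8, 8 and 2 in Ins/Ins and 11, 7 and 12 in Ins/Del. Its fall in Ins/Ins was 30.5-fold with a counting interval of 19.1 to 51.9, and in Ins/Del the log2 fold change was -4.14 ± 0.22 (SE, adjusted p = 1.5e-19). These intervals cover counting error only. Log2 fold changes of the other named targets were -3.03 ± 0.16 and -2.75 ± 0.16 (SE) for the receptor tyrosine kinase *Axl* and -2.71 ± 0.21 and -1.84 ± 0.18 for the ectonucleotidase *Nt5e*. They were -1.53 ± 0.059 and -1.60 ± 0.060 (SE) for the insulin-like growth factor binding protein *Igfbp3* and -1.41 ± 0.050 and -1.23 ± 0.050 for the exchange factor *Dock5*, and the highest adjusted p of these 4 genes was 1.8e-11.

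**Figure D4:**
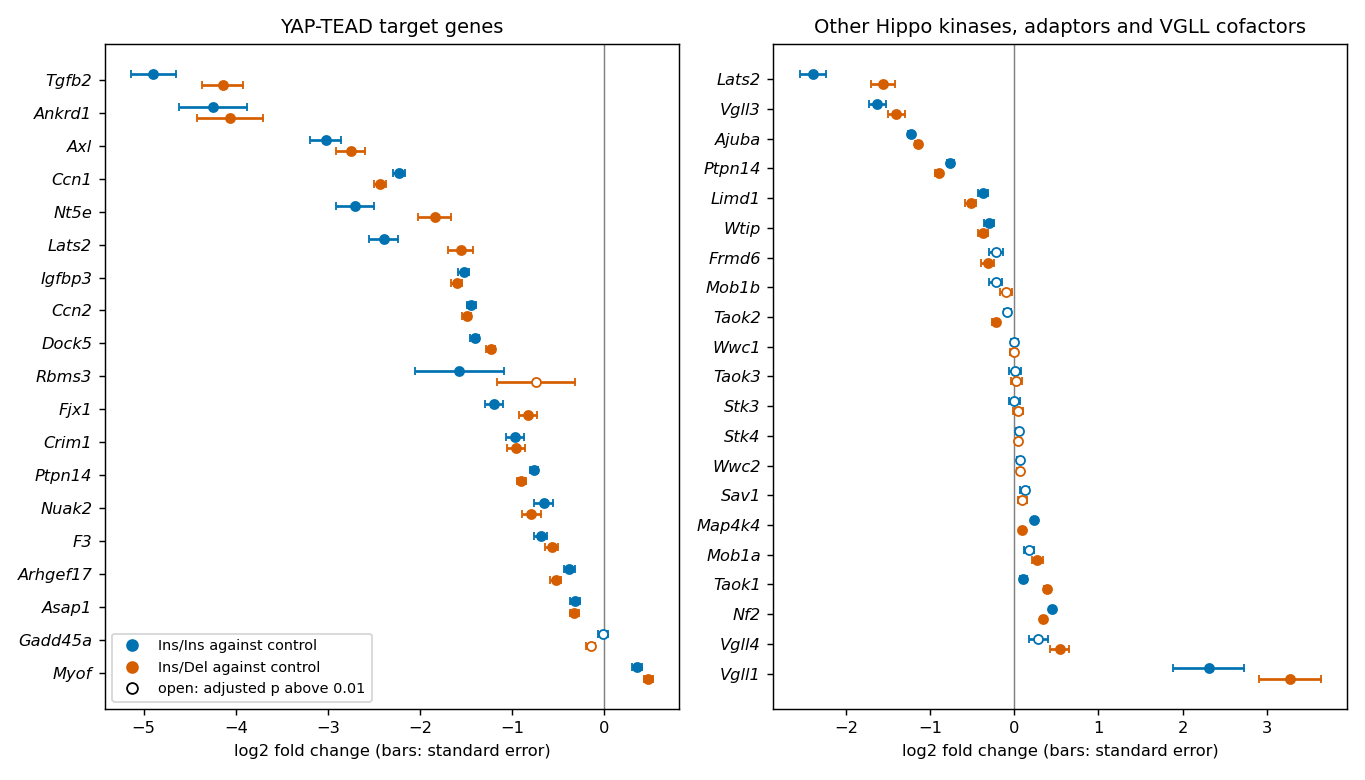
Log2 fold change with SE of the tested YAP-TEAD target genes (left) and of the other Hippo kinases, adaptors and VGLL cofactors (right) in both mutant lines against the control. Open points have an adjusted p above 0.01. In the left panel *Myof* alone lies clearly right of 0, and in the right panel *Vgll1* lies furthest right at 2.31 and 3.28 and *Lats2* furthest left at -2.40 and -1.56.

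Genes of the trophectoderm, the lineage in which YAP and TEAD4 are active, included genes that rose and genes that fell. Of 8 listed genes 7 were tested. In Ins/Ins 2 rose and 4 fell, where 29% of all tested genes rose and 29.4% fell. In Ins/Del 1 rose and 5 fell, where the shares were 30.6% and 31.9%. *Cdx2*, the transcription factor gene that TEAD4 activates in the embryo, had 27, 27 and 36 reads in the control, 2, 3 and 2 in Ins/Ins and 1, 2 and 4 in Ins/Del, which is 12.7-fold lower (95% counting interval 5.9 to 32.4) and 12.4-fold lower (5.8 to 31.8). *Gata3*, another early trophectoderm factor, fell by 0.90 ± 0.21 (SE, adjusted p = 0.00035) in Ins/Ins, whereas in Ins/Del its log2 fold change was -0.46 ± 0.20 (SE, adjusted p = 0.04). The simple keratins fell most among the well-counted genes of this list, *Krt8* from 1503 ± 129 (SD, n = 3) normalized counts to 233.8 ± 2.0 and 186.9 ± 26.5, and *Krt18* from 2091 ± 135 to 381.2 ± 34.4 and 265.9 ± 26.1. *Eomes*, a T-box factor of trophoblast and of the primitive streak, rose in both lines by 67.0% and 40.6%, and *Tfap2c*, a factor of trophoblast and germ cells, rose by 39.9% in Ins/Ins and fell by 13.8% in Ins/Del; both are named after their values were seen.

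The 5 tested genes whose pattern over the 9 libraries was most like that of *Amot* were *Psme1*, *Lrrn4*, *Mup6*, *Pak1* and *Aff3*. Likeness was the root mean square difference of log2 CPM after each gene was centred on its own mean, and it was 0.092 for *Psme1* and 0.13 for *Aff3*, against a median of 0.98 over 12710 genes. *Psme1* lies in the chromosome 14 segment described above. No other Hippo gene was among them.

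Library totals lay between 15838064 and 21366868 counted reads. *Rbbp4* itself gave 9932, 9965 and 10117 normalized counts in the control, 5485, 5551 and 5776 in Ins/Ins and 10129, 10344 and 10603 in Ins/Del. Its log2 fold change was -0.84 ± 0.029 (SE, adjusted p = 1.8e-25) in Ins/Ins and 0.05 ± 0.028 (SE, adjusted p = 0.11) in Ins/Del. The insertion and the deletion are small changes within the transcript, so the total count does not check the Ins/Del label. Summed normalized counts of 8 pluripotent markers were 78606 to 83028 in the control, 106736 to 108675 in Ins/Ins and 104427 to 107699.6 in Ins/Del, and none of these markers was at 3 reads or fewer throughout a line. The markers did not all rise. In Ins/Ins 7 rose and *Pou5f1* fell, where 29% of all tested genes rose and 29.4% fell. In Ins/Del 6 rose, where 30.6% of all tested genes did, and *Pou5f1* and *Sox2* were not called. Both are named after their values were seen. Of 8 fibroblast markers 5 were tested, 4 of which fell in both lines, where 26.7% of all tested genes did. *Thy1* rose in both, where 25.6% of all tested genes did. The sum of all 8 was 622.5 to 732.2 in the control, 278.7 to 301.1 in Ins/Ins and 354.7 to 387.6 in Ins/Del, with *Lum* at 3 reads or fewer in every library. *Thy1* made up most of the mutant sums, with means of 45.7 in the control, 245.7 in Ins/Ins and 311.6 in Ins/Del. *Col1a1*, *Col1a2*, *Col3a1* and *Pdgfrb* fell by 16.8, 38.9, 44.3 and 2.46-fold in Ins/Ins. In Ins/Del they fell by 11.8, 26.9, 31.8 and 2.37-fold, with *Col3a1* at 2 reads or fewer in every mutant library. These 5 genes are named after their values were seen. The sum of 7 primitive endoderm markers was 1699 to 1839, 1668 to 1789 and 2293 to 2311 in the same order. *Lama1*, a laminin chain named after its values were seen, made up most of this sum in every group. Of these 7 markers 6 were tested. In Ins/Ins 1 rose and 2 fell, where 29% of all tested genes rose and 29.4% fell. In Ins/Del 4 rose and 2 fell, where the shares were 30.6% and 31.9%. The part of these marker shifts in the results was not tested.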

How the data were processed

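RNA-seq of 9 libraries was analysed, 3 each of E14 control, Ins/Ins and Ins/Del ESCs, grouped by the genotype label. The authors used a Kapa mRNA HyperPrep kit and paired-end sequencing, mapped the reads to mm10 with STAR 2.7.3 and obtained gene counts with HTSeq. The files they deposited hold these raw counts as whole numbers for each gene symbol. The HTSeq annotation and strand setting are not given in the sources used here, so overlapping and antisense gene models cannot be separated.

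edgeR 4.0.16 in R 4.3.3 was used for filterByExpr, TMM factors and the quasi-likelihood test (glmQLFit, glmQLFTest) in 1 fit of all 9 libraries with 3 groups and no covariate. Benjamini-Hochberg adjustment was over 14125 tested genes, and an adjusted p of at most 0.01 was called, the limit of the study's methods. The fit was tested on simulated data. Total counts of 15838064 to 21366868 reads set the precision. Normalized counts are counts scaled by the effective library size. Levels per length are CPM per kb of GENCODE exon, and their family sums are given without a test. Positions are from GENCODE and promoter sequences from RefSeq, both on GRCm38. The members and gene lists were chosen with earlier results of these data known. Beside the 10 members, the text names *Ccn1*, *Ccn2*, *Ankrd1*, *Lats2*, *Cdx2* and *Gata3*, and other listed genes that were called and over 2-fold in both mutants if their mean normalized count exceeded 20; marker genes are given as counts and ranges, and genes named after their values were seen are marked so in the text. The 5 genes most like *Amot* were taken from tested genes with the same minimum count.

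Alternatives were DESeq2 1.42.0, DESeq2's size factors or total counts in edgeR, no filter on low counts, a block for the replicate number, a fit of the 2 groups compared, leaving out each library, an adjusted p of at most 0.05 and a test of a change greater than 2-fold. Counts of the lists without genes of chromosome 14 from 45 to 88 Mb were added after seeing the data. ChIP-seq was not analysed here. Python 3.11.15, pandas 2.3.3, scipy 1.17.1 and matplotlib 3.10.9 were used for summaries and plots.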

Additional observations from a re-analysis of the deposited data

Results flagged for a closer look

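Ins/Del was compared directly with Ins/Ins (edgeR's quasi-likelihood test, adjusted over all tested genes), where 10.8% of all tested genes were called. Among the genes with values in the report, *Rbbp4* itself was called at 0.89 on the log2 scale (adjusted p = 4.1e-24) and the marker *Thy1* at 0.34 (adjusted p = 0.0035). The following 7 genes were called as well. *Wwtr1* differed by 0.24 on the log2 scale (adjusted p = 0.0028), with all 3 Ins/Del libraries above all 3 Ins/Ins libraries. It lost the call without the first Ins/Del library (0.20, adjusted p = 0.032) and without the first Ins/Ins library (0.21, adjusted p = 0.03). *Tead1* differed by -0.17 (adjusted p = 0.00018), with all Ins/Del libraries below. *Lats2* differed by 0.84 (adjusted p = 0.0017), from 29.3 to 37.0 normalized counts in Ins/Ins and from 49.6 to 75.7 in Ins/Del; without the first Ins/Del library the difference was 0.65 (adjusted p = 0.033) and without the second Ins/Ins library 0.75 (adjusted p = 0.012). *Vgll1* differed by 0.97 (adjusted p = 0.0072), and it lost the call under DESeq2 (0.99, adjusted p = 0.052) and without any 1 of the 6 mutant libraries (0.91 to 1.08). *Krt18* differed by -0.53 (adjusted p = 5.6e-06), from 358.4 to 420.8 normalized counts in Ins/Ins and from 242.3 to 293.9 in Ins/Del. *Tfap2c* differed by -0.70 (adjusted p = 5.1e-15), from 1726 to 1807 normalized counts in Ins/Ins and from 1015 to 1139 in Ins/Del, so that all Ins/Ins libraries lay above and all Ins/Del libraries below those of the control, at 1236 to 1297. *Nf2* differed by -0.11 (adjusted p = 0.0073), and it lost the call under DESeq2 (-0.099, adjusted p = 0.012), with DESeq2's size factors (-0.098, adjusted p = 0.016) and without any 1 of the 6 mutant libraries (-0.121 to -0.089).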

How the results depend on the processing

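Against the control, the 10 Hippo genes kept their direction and their call in every fit that tested for any change, which included DESeq2 and each library left out. Tested for a change greater than 2-fold, 3 passed in each mutant line and 0 between the mutants. That test called 1236, 1563 and 0 of all genes in the comparisons of Ins/Ins with control, Ins/Del with control and Ins/Del with Ins/Ins, and in the same order 4, 4 and 0 kinases and adaptors, 4, 5 and 0 polarity genes, 9, 9 and 0 target genes and 3, 3 and 0 trophectoderm genes; the test asks for a larger change, so fewer genes pass by construction.

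The counts between the mutant lines were the least stable. At an adjusted p of at most 0.05 they were 2682 genes, 3 polarity genes, 5 target genes and 4 trophectoderm genes. DESeq2 called 3 kinases and adaptors, a fit of the 2 groups alone 3 polarity genes, total counts 2 polarity genes, and no filter on low counts 2 polarity and 2 target genes. Without the chromosome 14 segment 0 target genes were called, since the only one called, *Lats2*, lies in it. With each library left out, between the mutants 988 to 1646 genes, 1 to 2 Hippo genes, 2 to 5 kinases and adaptors, 1 to 3 polarity genes, 0 to 1 target genes and 2 to 3 trophectoderm genes were called. Against the control, leaving out a library gave 7642 to 8278 genes in Ins/Ins and 8134 to 8986 in Ins/Del. Log2 differences between the mutants that changed sign when a library was left out were those of *Tead3* (-0.148 to 0.062), *Tead4* (-0.162 to 0.014) and *Lats1* (-0.046 to 0.025), none of which was called. The summed level of the angiomotins differed between the mutants by -2.04% to 0.53% and that of *Yap1* and *Wwtr1* by -1.53% to 1.23% without 1 library, and by 0.32% and 0.12% with DESeq2's size factors. The cause was not tested for these changes.

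No pairing of the samples by the replicate numbers of the labels was seen. Deviations of libraries with the same number correlated from -0.028 to 0.056, and those of libraries with different numbers from -0.057 to 0.062. These values do not show whether libraries were prepared together. With the replicate block, 10, 10 and 2 Hippo genes and 8225, 8795 and 1499 of all genes were called, and no call of a Hippo gene changed.

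Depth limits *Vgll1*, *Ankrd1*, *Cdx2*, *Tgfb2*, *Dchs1* and *Col3a1*, each with a library of 5 reads or fewer in at least 1 group. Each mutant genotype is 1 clone, so clone and genotype cannot be told apart.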
